A study of Mus musculus with 80 samples.

Results

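The 45 genes described here belong to the integrated stress response and to the amino acid metabolism that it controls. They were taken from a list of ATF4 pathway genes, and all 45 were found among the 32764 genes of the count tables. They comprise 14 regulators, the 4 kinases of eIF2alpha, 12 enzymes of amino acid, serine and one-carbon metabolism, 5 amino acid transporters or their subunits and 10 tRNA synthetases. RNA was sequenced from liver, muscle, the inguinal white fat pad (iWAT) and brown fat (BAT) of male mice on a C57BL/6J background that had eaten a high-fat diet for 3 weeks. Each genotype had 5 libraries in each tissue. The mice were raised at 30 °C, which is thermoneutral for a mouse, and were moved to room temperature at an age of 10 to 12 weeks, when the high-fat diet began. WT mice carried neither deletion, UCP1 KO mice lacked the uncoupling protein of brown fat, FGF21 KO mice lacked the hormone FGF21, and double knockout (dKO) mice lacked both. Double knockouts came from crosses of the single knockouts and were homozygous, as were the other genotypes, whose parents were again of the same genotype, so that genotype and parentage cannot be told apart. No tissue-specific promoter or Cre is named for either deletion in the sources used here. Values are given as CPM, the reads of a gene relative to the scaled total of its library (TMM factors), and a gene was called when its adjusted p in edgeR's quasi-likelihood test was under 0.01.

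The integrated stress response begins when one of the kinases that sense amino acid shortage, misfolded protein in the endoplasmic reticulum, heme shortage or mitochondrial stress, or double-stranded RNA phosphorylates eIF2alpha. General translation is then reduced while the mRNA of the transcription factor ATF4 is translated more, and ATF4 raises genes that import amino acids, make serine, glycine, proline and cysteine, load tRNAs and, in the end, dampen the response itself. Its secreted targets include FGF21 and GDF15. The kinases act through phosphorylation, which mRNA counts do not measure.

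The libraries held 28691377 to 50380696 reads assigned to genes. The deleted genes were read first. Fgf21 had 0 to 3 counts in each BAT library of FGF21 KO and dKO, while WT libraries had 7 to 10 and UCP1 KO libraries 353 to 1728. The genotype label of the double knockout names FGF12, while the study describes a cross of UCP1 KO with FGF21 KO. Ucp1 reads were not absent from UCP1 KO BAT, with 530 to 1240 CPM there and 3210 to 7560 CPM in the WT libraries, and reads do not show whether protein is made. The summed level of 10 skeletal muscle markers ran from 61.3 to 9020 CPM in UCP1 KO BAT and from 98.0 to 4820 CPM in dKO BAT, against 28.1 to 122 CPM in WT BAT and 129000 to 161000 CPM in WT muscle. In iWAT, 9 of 20 libraries had a high lymph node score (the mean log2 of CPM plus 0.1 over 8 B and T cell genes, above 4), 2 of them in WT, 4 in FGF21 KO, 1 in UCP1 KO and 2 in dKO. Adipocyte markers were abundant in every BAT library, at 5180 CPM summed or more, and hepatocyte markers in every liver library, at 67700 CPM or more.

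In BAT, loss of UCP1 came with higher levels of most of these genes. Of the 45, which all passed the low-count filter, 34 were called in UCP1 KO against WT, when 25.2% of the 15729 tested genes were called. Among them 33 were higher, against 13.8% of all tested genes, and 1 was lower, Eif4ebp1, against 11.4%. The median log2 fold change was 1.11 over the 45 genes and 0.01 over all tested genes. The 10 largest called changes were, in order, those of Slc7a11, Slc7a5, Trib3, Mthfd2, Atf3, Chac1, Aldh1l2, Aldh18a1, Cth and Ddit3, and with all libraries none of the kinases was called.

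**Figure D1:**
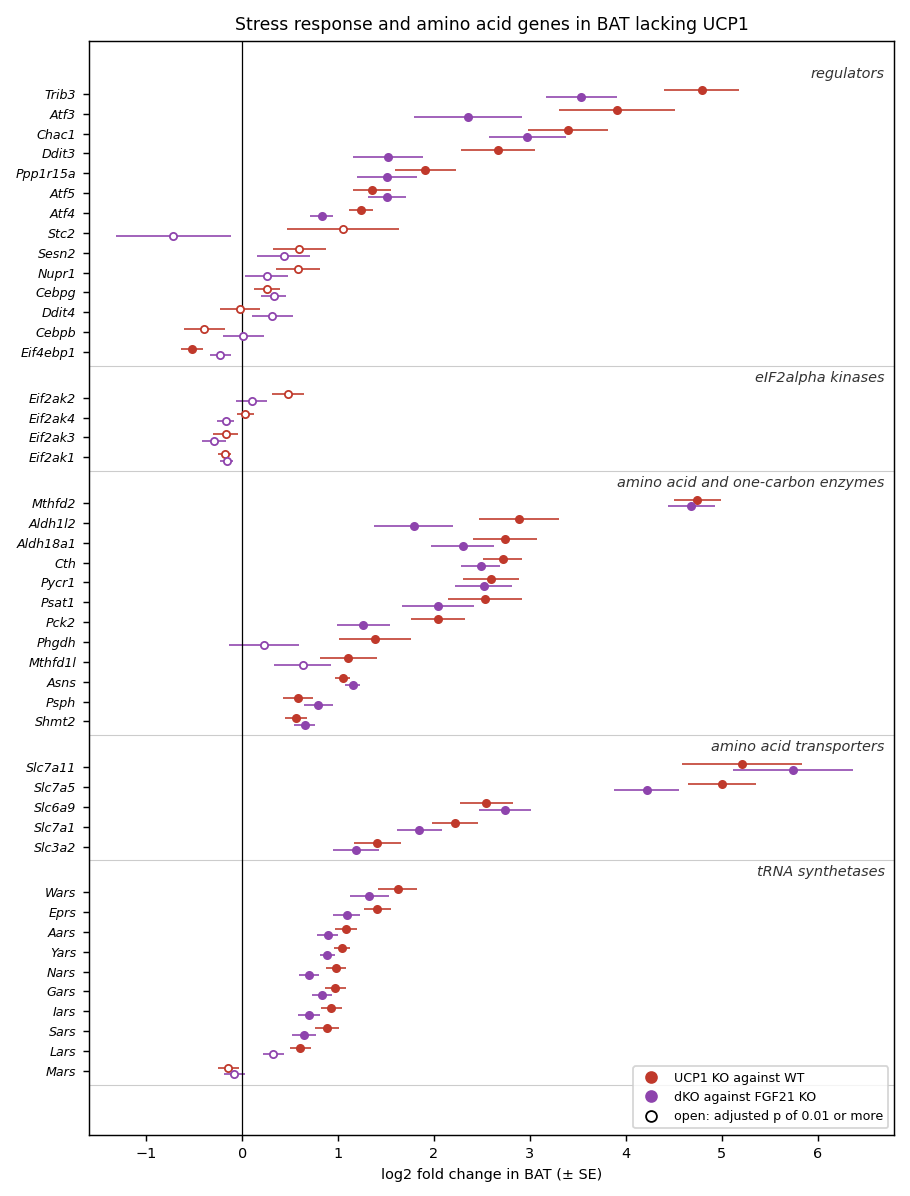
Log2 fold change (horizontal axis, ± SE) of the 45 genes in BAT, sorted by size within each role, for UCP1 KO against WT (red) and dKO against FGF21 KO (purple), with filled points for an adjusted p under 0.01. Filled points lie to the right of 0 in both comparisons, up to 5.21 and 5.74 for Slc7a11, except for Eif4ebp1 at -0.52 in UCP1 KO against WT, and the 4 kinases are open.

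Among the regulators, Atf4 (chr15:80255184-80257541, the factor at the centre of the response) was counted at 65.3, 91.9, 108, 84.2 and 94.2 CPM in the WT libraries and at 179, 185, 183, 244 and 255 CPM in those of UCP1 KO. Each UCP1 KO value was above each WT value, and the mean rose from 88.7 ± 15.7 to 209 ± 37.5 CPM (SD, n = 5). This was a 2.36-fold rise, with a log2 fold change of 1.24 ± 0.12 (SE) and an adjusted p of 1.18e-06.

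Trib3 (chr2:152337422-152344032) encodes a pseudokinase that restrains ATF4 and insulin signalling. Its WT libraries held 7.09, 5.72, 4.69, 7.06 and 4.84 CPM and its UCP1 KO libraries 54.9, 82.4, 123, 259 and 296 CPM. The lowest UCP1 KO library was several times the highest WT library, and the fitted rise was 27.7-fold (log2 4.79 ± 0.39, adjusted p = 1.48e-07). Per kilobase of exon, Trib3 moved from rank 29 of the 45 genes in WT BAT, at 2.77 CPM per kb, to rank 4 in UCP1 KO BAT, at 76.6 CPM per kb, behind Atf5, Atf4 and Gars.

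Atf3 (chr1:191170296-191218039) is a stress-induced partner and repressor of other ATF and CREB family factors. WT libraries had 1.25, 7.13, 4.62, 2.54 and 2.00 CPM and UCP1 KO libraries 28.6, 21.4, 14.0, 49.2 and 147 CPM. The groups did not overlap, but the last UCP1 KO library stood far above the others of its group. Atf3 rose by log2 3.91 ± 0.60 (adjusted p = 8.05e-05) with all libraries and by 3.02 ± 0.46 (adjusted p = 9.96e-05) without that library.

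Chac1 (chr2:119351229-119354381) encodes an enzyme that degrades glutathione. Its CPM was 1.16, 1.76, 1.12, 0.976 and 0.753 in WT and 4.21, 11.1, 13.4, 15.9 and 15.9 in UCP1 KO. No library of one group reached the other, with a log2 fold change of 3.40 ± 0.41 (adjusted p = 7.80e-06).

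Ddit3 (chr10:127290774-127296288) encodes CHOP, a factor of prolonged stress. Its last exon shares 68 bases with Mars on the opposite strand, and whether counting used the strand is not given in the sources used here. The libraries held 18.7, 19.6, 17.3, 18.4 and 16.4 CPM in WT and 32.3, 67.7, 63.7, 164 and 246 CPM in UCP1 KO. WT was tight and UCP1 KO widely spread, without overlap, and Ddit3 rose by log2 2.67 ± 0.38 (adjusted p = 4.12e-05) while Mars had a log2 difference of -0.14 ± 0.11 (adjusted p = 0.301).

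Of the other regulators, Ppp1r15a, which directs the phosphatase that restores eIF2alpha, rose by log2 1.91 ± 0.32 (adjusted p = 0.000152). Atf5, a factor of the mitochondrial stress response, rose by 1.36 ± 0.20 (adjusted p = 5.37e-05). Both lie near Fgf21 on chromosome 7, at 0.088 Mb and 0.797 Mb, but both groups of this comparison carried the WT Fgf21 allele. Eif4ebp1, a translational repressor and known ATF4 target, was lower, with 142, 172, 182, 191 and 187 CPM in WT and 135, 130, 145, 111 and 86.7 CPM in UCP1 KO. Its groups overlapped at 1 WT library, and it fell by 0.52 ± 0.11 on the log2 scale (adjusted p = 0.00124). This call was lost in the fit of only these 2 genotypes (adjusted p = 0.0159). Cebpg, Cebpb, Nupr1, Sesn2, Ddit4 and Stc2, partners or downstream targets of ATF4, were not called, with log2 differences between -0.40 for Cebpb and 1.05 for Stc2. The Stc2 difference rested on UCP1 KO replicate 5 and was 0.01 without it (adjusted p = 0.994).

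With all libraries, none of the 4 eIF2alpha kinases was called. Eif2ak3 (PERK, the kinase of the endoplasmic reticulum) had a log2 difference of -0.17 ± 0.13, Eif2ak4 (GCN2, the amino acid sensor) of 0.03 ± 0.09, Eif2ak1 (HRI, the heme and mitochondrial stress sensor) of -0.18 ± 0.07 and Eif2ak2 (PKR, the sensor of double-stranded RNA) of 0.48 ± 0.17, with adjusted p of 0.285, 0.781, 0.0416 and 0.0267. Eif2ak4 showed little spread, at 18.8 to 19.3 CPM in WT and 16.1 to 21.4 CPM in UCP1 KO. Without UCP1 KO replicate 1, Eif2ak1 (-0.24 ± 0.07, adjusted p = 0.00742) and Eif2ak2 (0.58 ± 0.16, adjusted p = 0.00885) were called, in opposite directions.

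**Figure D2:**
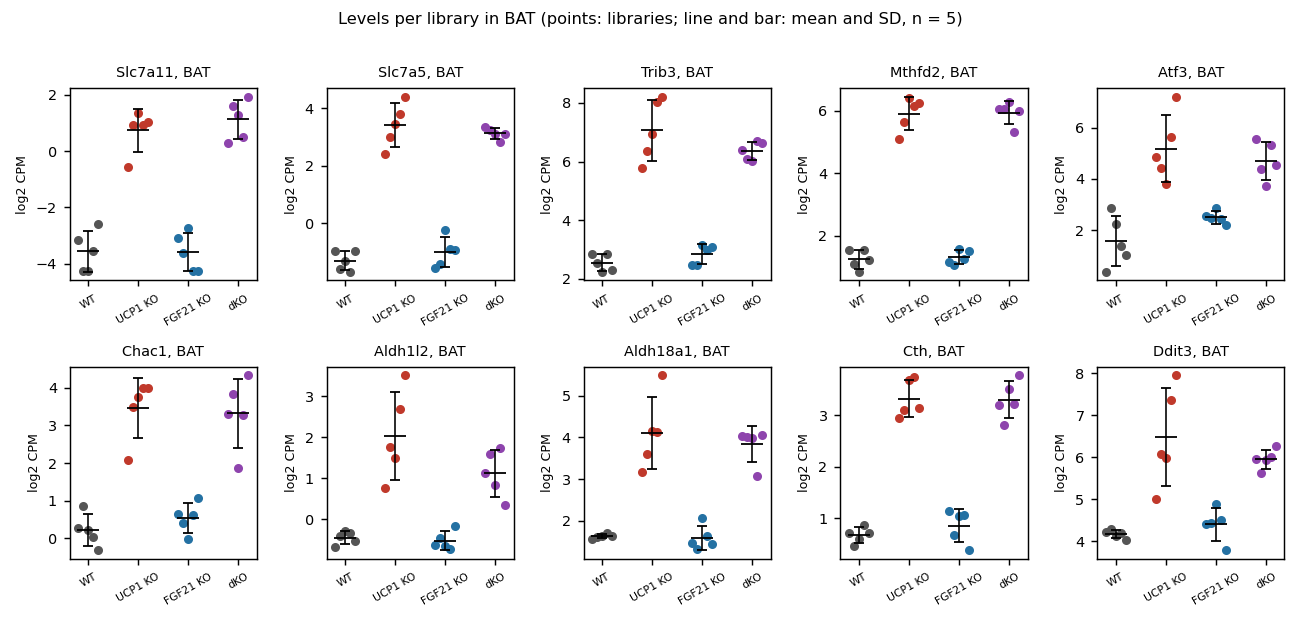
Log2 CPM (prior count of 2) of the 10 genes with the largest called changes in BAT, by genotype, with 1 point per library and the mean ± SD of 5 libraries in black. In each of the 10 panels the UCP1 KO points lie above the WT points and the dKO points above the FGF21 KO points, as for Mthfd2 with 34.4 to 85.4 CPM in UCP1 KO against 1.75 to 2.86 CPM in WT.

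All 12 enzymes were called higher in UCP1 KO BAT, with log2 fold changes from 0.56 for Shmt2 to 4.75 for Mthfd2. Mthfd2 (chr6:83305691-83325908) is the mitochondrial folate enzyme that turns the one-carbon unit released from serine towards formate. It was counted at 2.86, 2.07, 1.75, 2.83 and 2.26 CPM in WT and at 34.4, 49.8, 85.4, 71.7 and 75.6 CPM in UCP1 KO. It had the smallest p of the 45 genes in this comparison and rose 26.8-fold (log2 4.75 ± 0.25, adjusted p = 9.47e-10).

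Aldh1l2 (chr10:83487450-83534140), the mitochondrial formyltetrahydrofolate dehydrogenase, had 0.578, 0.702, 0.769, 0.748 and 0.637 CPM in WT and 1.64, 3.32, 2.75, 6.38 and 11.3 CPM in UCP1 KO. Each UCP1 KO library was higher, and the rise was 2.89 ± 0.42 on the log2 scale (adjusted p = 4.25e-05). Its exons share 1056 bases with a gene on the other strand. The serine-to-glycine enzyme of the mitochondrion, Shmt2, rose by 0.56 ± 0.11 (adjusted p = 0.000744) and Mthfd1l, which completes formate release, by 1.11 ± 0.30 (adjusted p = 0.00661). Of 4 one-carbon enzymes outside the 45 genes (Shmt1, Mthfd1, Mthfd2l and Aldh1l1), 0 were called in either comparison of UCP1 loss, with log2 differences of -0.20 to 0.48 in this one.

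Enzyme genes for proline and cysteine are given next. Aldh18a1 (chr19:40550257-40588463), which makes the precursor of proline from glutamate, had 2.89, 2.98, 3.04, 3.22 and 3.04 CPM in WT and 8.96, 12.0, 17.7, 17.5 and 45 CPM in UCP1 KO. WT was the tightest group and the last UCP1 KO library the highest by far, with a rise of log2 2.74 ± 0.33 (adjusted p = 8.12e-06). Pycr1, which completes proline, rose by 2.59 ± 0.29 (adjusted p = 3.85e-06).

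Cth (chr3:157894248-157925077), the enzyme that releases cysteine from cystathionine, was counted at 1.58, 1.33, 1.47, 1.79 and 1.59 CPM in WT and at 7.67, 8.57, 12.8, 13.3 and 8.72 CPM in UCP1 KO. This rise was even across the libraries, at log2 2.72 ± 0.21 (adjusted p = 4.30e-08). Of the serine synthesis enzymes, Psat1 rose by 2.53 ± 0.38 (adjusted p = 6.89e-05), Phgdh by 1.38 ± 0.37 (adjusted p = 0.00649) and Psph by 0.58 ± 0.15 (adjusted p = 0.00561). Asns, which makes asparagine, rose by 1.05 ± 0.08 (adjusted p = 4.07e-08) from an already high level of 48.7 to 56.3 CPM in WT. The mitochondrial PEP carboxykinase Pck2 rose by 2.04 ± 0.28 (adjusted p = 3.02e-05).

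All 5 transporter genes were called higher. Slc7a11 (chr3:49892526-50443614), the cystine importer, was almost absent from WT BAT, with 2, 0, 0, 1 and 4 reads in the 5 libraries. In UCP1 KO it had 23, 74, 123, 96 and 91 reads, or 0.617 to 2.51 CPM. From the summed reads, 7 in WT and 407 in UCP1 KO, the ratio per library size was 40.4 (exact 95% counting interval 19.4 to 101), and the fitted log2 fold change was 5.21 ± 0.63 (adjusted p = 7.06e-06). Even so, Slc7a11 remained the lowest of the 45 genes per kilobase in UCP1 KO BAT, at 0.127 CPM per kb.

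Slc7a5 (chr8:121881150-121907694) is the large neutral amino acid carrier that brings leucine into cells. Its CPM was 0.456, 0.281, 0.350, 0.260 and 0.463 in WT and 5.28, 7.90, 10.9, 13.9 and 21.0 in UCP1 KO. The lowest UCP1 KO library was far above the highest WT library, and the rise was 32.1-fold (log2 5.0 ± 0.36, adjusted p = 2.98e-08). Its heavy-chain partner Slc3a2, shared with Slc7a11, rose by 1.41 ± 0.24 (adjusted p = 0.000207), the glycine transporter Slc6a9 by 2.55 ± 0.27 (adjusted p = 2.27e-06) and the cationic amino acid transporter Slc7a1 by 2.22 ± 0.24 (adjusted p = 2.27e-06).

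The tRNA synthetases load amino acids onto tRNAs. Of the 10, 9 were called higher, with log2 fold changes from 0.61 for Lars to 1.62 for Wars, and Mars was not called. Nars is an example, at 81.9, 81.8, 81.6, 78.9 and 83.1 CPM in WT and 135, 131, 156, 156 and 225 CPM in UCP1 KO (log2 0.98 ± 0.11, adjusted p = 2.37e-06). Eprs, the synthetase for glutamate and proline, rose by 1.41 ± 0.14 (adjusted p = 1.47e-06).

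The groups did not overlap for 33 of the 45 genes, all higher in UCP1 KO, against 23.5% of all tested genes without overlap in either direction and 11.8% higher. For each of these 33 the exact two-sided permutation p on log2 CPM was 0.00794, the smallest that 5 libraries against 5 can give. They were not the same 33 as those called higher. Cebpg was not called but did not overlap, and Phgdh was called but overlapped (permutation p = 0.0317). The UCP1 KO libraries were not alike. Replicate 5 held the highest value of its group for 32 of the 45 genes and replicate 1 the lowest for 25. Without replicate 5, 31 genes were called (21.7% of all tested genes): Mthfd1l (log2 0.67, adjusted p = 0.0227), Phgdh (0.79, 0.0299) and Psph (0.53, 0.0161) were lost, and the Phgdh difference was 1.51-fold smaller.

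Markers of other cells moved with the genotype in the same libraries. All 10 skeletal muscle markers had a positive log2 difference in UCP1 KO BAT and 5 were called, with every defining marker detected in each genotype. Their score, defined as for lymph node genes, was 2.43, 9.45, 6.07, 4.87 and 2.27 in UCP1 KO replicates 1 to 5 and 1.26 to 3.29 in WT, so that replicate 5, highest for most of the genes, had the lowest muscle score of its group. In the fit of libraries with a score at or under 5.03 (3 of UCP1 KO and 2 of dKO), 35 genes were called (23.3% of all tested genes), and with the score as a covariate 34 were (21.2%). On the scale shared by the tissues, for 16 of the 33 raised genes, Trib3, Mthfd2, Slc7a11, Slc7a5 and Cth among them, all muscle libraries were below the lowest UCP1 KO BAT library. For the other 17 the highest muscle library was above it, as for Chac1 (190 CPM in muscle, 4.06 CPM in the lowest UCP1 KO BAT library), Atf3 (26.8 and 13.8 CPM), Aldh18a1 (15.9 and 8.63 CPM) and Aldh1l2 (14.8 and 1.58 CPM). Of 8 macrophage markers, 6 were called higher in UCP1 KO BAT, with a summed level of 159 to 416 CPM against 122 to 152 CPM in WT. Of 5 adipocyte markers, 3 were called lower, with 5180 to 12100 CPM against 10500 to 12200 CPM. The adipocyte score was 10.0, 9.85, 9.51, 9.18 and 9.05 in UCP1 KO replicates 1 to 5 and 10.1 to 10.65 in WT. The brown adipocyte score, with Ucp1 among its 5 genes, was 9.70, 8.78, 9.04, 8.68 and 8.24 in the same replicates. In WT it was 8.48 to 9.30. Both scores in UCP1 KO were highest in replicate 1 and lowest in replicate 5. No macrophage or adipocyte marker was at 0 in a genotype. Their part in the result was not tested, and in whole tissue more cells of a type and more RNA per cell cannot be told apart.

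The same question was asked without FGF21, by comparing dKO with FGF21 KO, which share no library with the comparison above. Both comparisons came from 1 fit over the 20 BAT libraries. In dKO BAT, 30 of the 45 genes were called, all of them higher, when 13.5% of all tested genes were called and 6.74% were higher. The median log2 fold change was 0.89, against 0.00 over all tested genes. All 30 were among the 34 genes called in UCP1 KO against WT with the same direction, that is, 88.2% of that list and 100% of this one. The matching overlap over all tested genes is not given, so it cannot be told whether this share is particular to the 45 genes. Eif4ebp1, Lars, Mthfd1l and Phgdh were called in UCP1 KO against WT and not here. Groups did not overlap for 32 genes, 30 higher and Eif4ebp1 and Eif2ak3 lower, against 18.6% of all tested genes, with 8.84% higher.

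The largest changes were in the same kinds of genes. Slc7a11 had 3, 1, 3, 0 and 0 reads in FGF21 KO and 51, 114, 102, 53 and 180 reads in dKO, a ratio of 58.0 per library size (exact 95% counting interval 27.9 to 145), and a log2 fold change of 5.74 ± 0.63 (adjusted p = 5.17e-06). Mthfd2 was counted at 2.20, 2.01, 2.90, 2.32 and 2.82 CPM in FGF21 KO and at 66.2, 66.1, 77.8, 40.2 and 64.2 CPM in dKO (log2 4.68 ± 0.25, adjusted p = 1.07e-09). For both genes every dKO library was far above every FGF21 KO library.

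Slc7a5 had 0.286, 0.326, 0.807, 0.484 and 0.469 CPM in FGF21 KO and 10.1, 9.50, 8.44, 7.08 and 8.63 CPM in dKO (log2 4.22 ± 0.34, adjusted p = 2.63e-07). Trib3 had 5.54, 5.45, 8.94, 7.89 and 8.35 CPM in FGF21 KO and 83.7, 68.0, 65.1, 103 and 98.8 CPM in dKO (log2 3.54 ± 0.37, adjusted p = 3.25e-06). The dKO libraries were closer together than those of UCP1 KO for these genes.

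Chac1, at 1.52, 1.27, 0.936, 1.49 and 2.06 CPM in FGF21 KO, was at 9.87, 14.2, 3.61, 9.55 and 20 CPM in dKO (log2 2.97 ± 0.40, adjusted p = 4.65e-05). Ddit3 was at 21.4, 21.5, 29.4, 22.9 and 13.8 CPM in FGF21 KO and 61.8, 49.3, 60.9, 64.4 and 76.4 CPM in dKO (log2 1.52 ± 0.37, adjusted p = 0.00559). Neither gene overlapped between the groups. Atf4 itself rose by 0.83 ± 0.12 (adjusted p = 0.000103), from 103 to 130 CPM to 185 to 207 CPM.

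The remaining named genes were Atf3 (4.50 to 7.16 CPM in FGF21 KO and 13.1 to 47.6 CPM in dKO, log2 2.35 ± 0.56, adjusted p = 0.00498), Aldh18a1 (2.43 to 4.10 and 8.34 to 16.7 CPM, 2.30 ± 0.33, adjusted p = 7.83e-05), Aldh1l2 (0.554 to 0.845 and 1.21 to 3.27 CPM, 1.79 ± 0.41, adjusted p = 0.00382) and Cth (1.25 to 2.15 and 6.98 to 13.6 CPM, 2.49 ± 0.20, adjusted p = 2.63e-07). Leaving out single libraries gave 27 to 30 called genes. The calls lost were those of Atf3, Ddit3 and Aldh1l2, with adjusted p of 0.0101 to 0.0165, when 1 of 8 libraries was left out (any FGF21 KO library, or dKO replicate 1, 2 or 5). In the libraries with a muscle score at or under 5.03, 26 genes were called (13% of all tested genes), and Pck2 (adjusted p = 0.0107) was lost with the same 3.

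UCP1 KO and dKO BAT were then set side by side, which asks whether FGF21 mattered once UCP1 was gone. By edgeR and by DESeq2 0 of the 45 genes passed, when 0.0636% of all tested genes did by edgeR and 0.356% by DESeq2. An unadjusted p under 0.05 was seen for 9, against 12.9% of all tested genes. Of these 9, Stc2, Aldh1l2, Trib3, Pck2, Ddit3 and Eif2ak2 were higher in UCP1 KO, and Asns, Eif4ebp1 and Cebpb were lower. The difference in Trib3 was log2 0.96 ± 0.33 (adjusted p = 0.271), in Pck2 0.95 ± 0.27 (0.199) and in Asns -0.29 ± 0.08 (0.172). Asns was the single gene of the 45 without overlap, at 87.4 to 121 CPM in UCP1 KO and 125 to 149 CPM in dKO, against 1.23% of all tested genes. The SE of 0.53 for Atf3 and 0.36 for Ddit3, with log2 differences of 0.85 and 0.88, shows how wide these comparisons were, and a p that misses the threshold does not show equal levels.

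FGF21 KO against WT in BAT called 0 of the 45 genes with edgeR and with DESeq2 (0% of all tested genes by edgeR and 0.191% by DESeq2). At an unadjusted p under 0.05 there were 3, a smaller share than the 8.55% of all tested genes: Atf4 (log2 0.31 ± 0.12, adjusted p = 0.474), Asns and Lars, all higher, against 4.36% higher. The groups did not overlap for 6 of the 45 genes, Asns, Nars, Aars, Iars, Eprs and Lars, all higher in FGF21 KO, against 3.79% of all tested genes without overlap and 1.95% higher. Asns, for example, was at 48.7 to 56.3 CPM in WT and 57.6 to 65.8 CPM in FGF21 KO. Atf5 and Ppp1r15a, which lie beside the deleted Fgf21 gene, had log2 differences of -0.02 ± 0.20 and -0.05 ± 0.31. The interaction, the effect of UCP1 loss with FGF21 minus that without it, was called for 0 of the 45 genes by both tools (0% of all tested genes by edgeR and 0.00636% by DESeq2). Unadjusted p under 0.05 was seen for 5 genes, against 5.37% of all tested genes and 3.38% with a positive difference: Trib3 (log2 1.26 ± 0.49, adjusted p = 0.904), Ddit3 (1.15 ± 0.51), Phgdh, Stc2 and Atf4, each with a positive difference.

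Genes of the same pathway outside the 45 were read from further lists in BAT of UCP1 KO against WT, to be set beside the 13.8% of all tested genes called higher and 11.4% called lower. Of the secreted ATF4 targets, Fgf21 rose by log2 6.58 ± 0.36 (adjusted p = 1.15e-09) and Gdf15 by 6.12 ± 0.68 (adjusted p = 3.27e-06), and Adm2 did not pass the filter. Gdf15 also rose in dKO against FGF21 KO, by 4.85 ± 0.60 (adjusted p = 1.79e-05). Of 13 further ATF4 targets, 8 were called higher and 0 lower, with a median of 0.77, led by Ero1l, an oxidase of the endoplasmic reticulum (3.13 ± 0.40, adjusted p = 1.21e-05), and Slc1a4, a carrier of small neutral amino acids (1.90 ± 0.39, adjusted p = 0.00103).

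Of the 10 other cytosolic tRNA synthetases, 6 were called higher and 1, Qars, lower, with a median of 0.45. Cars rose by 1.17 ± 0.07 (adjusted p = 3.29e-09) and Tars by 0.65 ± 0.06 (adjusted p = 3.43e-07). Their mitochondrial counterparts had a median of 0.01, with 1 of 17 called higher, Ears2 (0.61 ± 0.08, adjusted p = 1.16e-05), while Iars2 fell (log2 -0.38 ± 0.07, adjusted p = 0.000287). Subunits of eIF2 and its exchange factor, with other regulators of eIF2, had a median of -0.03 over 14 genes, with 4 called higher, led by Eif2s2 (0.54 ± 0.05, adjusted p = 4.88e-07) and Eif2b3 (0.47 ± 0.09, adjusted p = 0.00071), and 1 lower, Gcn1l1, so that 5 of 14 were called, not far from the 25.2% over all tested genes. Of 8 genes for chaperones and other stress factors of the endoplasmic reticulum, 3 were called higher, with a median of 0.18. They were Sdf2l1 (1.39 ± 0.21, adjusted p = 7.03e-05), Hspa5 and Edem1. Xbp1, a transcription factor in this list, had a log2 difference of 0.11 ± 0.14 (adjusted p = 0.555).

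Since many of these genes rose together, their promoters were read. ATF4 with a C/EBP partner is known to bind a composite element whose core reads TGATGNAA. This core was searched on both strands in the 300 bases from 250 before to 50 after each start in RefSeq's annotation of GRCm38.p6. Promoters were matched for 38 of the 45 genes, and 12 of the 38 (31.6%) held the core, against 3.97% of all 32851 promoters. The 12 were Aars, Asns, Atf3, Chac1, Gars, Iars, Nupr1, Pck2, Pycr1, Slc7a11, Trib3 and Yars. Of these 12, 11 were called higher in UCP1 KO BAT, and of the 26 without it 16 were. Known ATF4 targets make up much of the list, so a high share comes with the choice of genes and is no result about BAT. Over all tested BAT genes with a promoter, 22.4% of the 321 with the core and 13.8% of those without it were called higher. The 321 include the 12 genes above, 11 of them called higher, so this share also draws on the chosen genes. A match is a description of letters and not a binding site.

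The promoter of Slc7a11, the gene with the largest fold change, holds the core once on each strand, a short stretch apart. Its 250 bases before the start are printed 5′ to 3′ on the strand of the gene, the minus strand at chr3:50443614-50443863, with both matches in capitals. Those of Mthfd2 (minus strand, chr6:83317605-83317854), with nearly the same rise, hold no match and are shown for contrast.
Slc7a11: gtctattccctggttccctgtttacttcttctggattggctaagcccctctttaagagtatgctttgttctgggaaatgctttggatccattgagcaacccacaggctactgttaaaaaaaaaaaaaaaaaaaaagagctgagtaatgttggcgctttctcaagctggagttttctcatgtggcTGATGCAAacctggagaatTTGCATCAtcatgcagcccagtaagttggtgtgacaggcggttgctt
Mthfd2: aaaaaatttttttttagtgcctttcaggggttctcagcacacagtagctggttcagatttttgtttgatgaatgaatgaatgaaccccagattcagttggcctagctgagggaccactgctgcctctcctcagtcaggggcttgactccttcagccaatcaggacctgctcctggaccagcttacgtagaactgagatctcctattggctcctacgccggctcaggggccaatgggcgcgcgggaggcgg

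The next lines show 30 bases around the core, in capitals, for some of the regulators and enzymes, each on the strand that carries TGATGNAA. Atf3, Chac1, Trib3, Asns, Pycr1 and Pck2 rose in BAT by log2 3.91, 3.40, 4.79, 1.05, 2.59 and 2.04, and Nupr1, the one gene with the core that was not called, had 0.58 ± 0.23 (adjusted p = 0.0456).
Atf3 (chr1:191183425-191183454): cgcggacttggTGATGCAAgtgcgagaagg
Chac1 (chr2:119351038-119351067): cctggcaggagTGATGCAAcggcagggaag
Trib3 (chr2:152344028-152344057): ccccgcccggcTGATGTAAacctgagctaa
Asns (chr6:7693214-7693243): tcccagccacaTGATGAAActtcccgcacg
Pycr1 (chr11:120643833-120643862): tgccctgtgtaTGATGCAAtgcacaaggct
Pck2 (chr14:55540152-55540181): ctgtaagatacTGATGTAActttgaaggct
Nupr1 (chr7:126625562-126625591): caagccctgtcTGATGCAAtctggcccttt

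Before turning to the other tissues, the WT levels were set side by side with TMM factors over all 80 libraries. Muscle had the highest mean for 15 of the 45 genes, iWAT for 14, BAT for 9 and liver for 7. That tissue stood apart, with each library above all WT libraries of the other tissues, for 11, 6, 7 and 6 of these. For Slc7a11, Slc7a5, Mthfd2 and Aldh18a1, highest in iWAT without standing apart, the 2 WT iWAT libraries of high lymph node score held the highest values. In WT, Atf4 was at 207 ± 21.9 CPM in muscle, 93.6 ± 19.5 in liver, 86.0 ± 15.4 in BAT and 70.2 ± 2.03 in iWAT (SD, n = 5), with muscle above every other library and liver and BAT within their spread. Chac1 reached 104 ± 66.2 CPM in muscle and 1.11 ± 0.354 CPM in BAT. The serine enzymes Phgdh and Psat1 were highest in iWAT, at 105 ± 33.1 and 85.6 ± 11.6 CPM, against 10.8 ± 2.01 and 6.26 ± 3.49 CPM in BAT.

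The same comparison in iWAT asks whether these genes also move in white fat. By edgeR, 0 of the 45 were called in UCP1 KO against WT, when 0.61% of 17380 tested genes were called. DESeq2 called 4, all higher, and 3.43% of all tested genes. At an unadjusted p under 0.05 there were 16 genes, 14 of them higher, against 14.7% of all tested genes at that level and 10.2% higher. The median log2 difference was 0.24, against -0.03 over all tested genes, and the groups did not overlap for 2 genes, Atf4 and Cebpb, both higher, against 3.83% of all tested genes and 2.92% higher.

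The 4 genes that DESeq2 called are shown here, chosen after their values were seen. Atf4 was at 106, 114, 111, 111 and 116 CPM in WT and at 139, 118, 131, 150 and 179 CPM in UCP1 KO (log2 0.37 ± 0.09, adjusted p = 0.0439 by edgeR and 0.00211 by DESeq2). Cebpb, a partner of ATF4 and a factor of adipocyte differentiation, had 5.24, 7.68, 8.04, 9.21 and 5.91 CPM in WT and 18.1, 9.35, 20.6, 15.4 and 26.0 CPM in UCP1 KO (log2 1.31 ± 0.35, adjusted p = 0.0531 and 0.00468). Both were higher in each UCP1 KO library, by small margins in replicate 2.

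Ddit3 had 16.9, 16.4, 14.5, 14.7 and 14.1 CPM in WT and 15.1, 16.6, 29.7, 40.8 and 61.8 CPM in UCP1 KO (log2 1.10 ± 0.29, adjusted p = 0.0507 and 0.0054). Trib3 had 7.18, 11.3, 8.68, 4.83 and 3.39 CPM in WT and 7.99, 4.91, 22.0, 38.9 and 65.0 CPM in UCP1 KO (log2 1.97 ± 0.55, adjusted p = 0.0641 and 0.0053). Replicates 3, 4 and 5 of UCP1 KO were above all WT libraries for both genes, and replicates 1 and 2 lay within the WT range. The same 3 libraries were highest for Fgf21, at 0.861, 0.594, 6.50, 9.64 and 14.0 CPM in UCP1 KO, with 0.0484 to 0.318 CPM across WT. Replicate 1 of UCP1 KO had a skeletal muscle score of 10.5, and replicate 2 a lymph node score of 7.34. Replicates 3 to 5 had muscle scores of 2.10, 1.79 and 4.98 and lymph node scores of 0.67 or less. WT replicate 5 scored 9.64 for skeletal muscle and 6.96 for lymph node. The part of these other cells in the split was not tested.

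**Figure D3:**
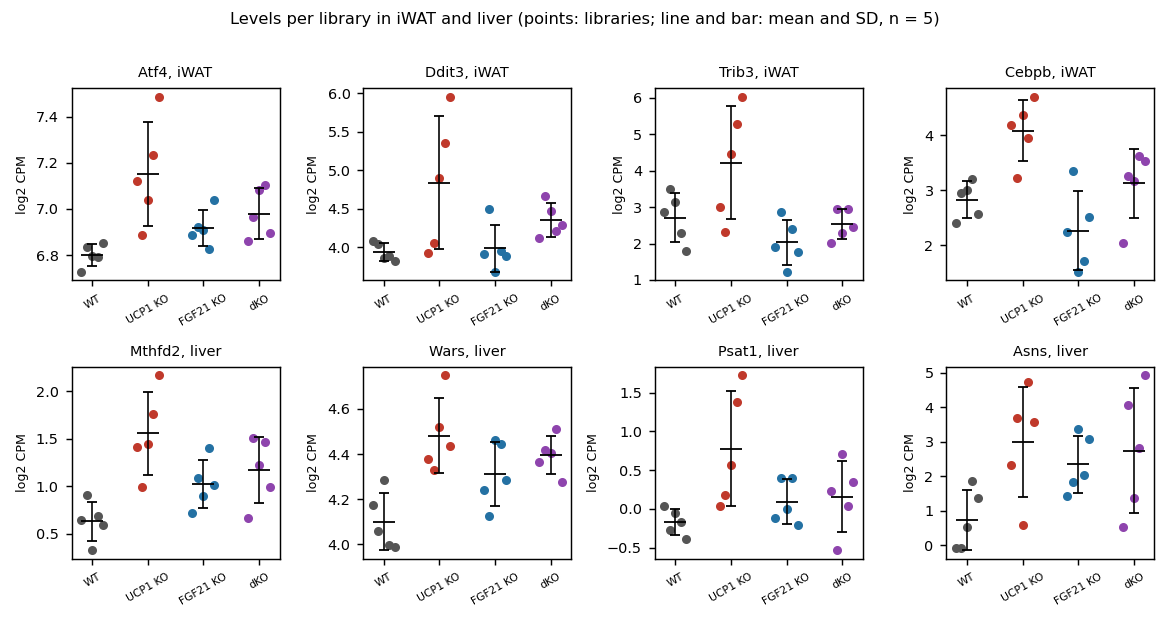
Log2 CPM (prior count of 2) by genotype for Atf4, Ddit3, Trib3 and Cebpb in iWAT (top row) and Mthfd2, Wars, Psat1 and Asns in liver (bottom row), with 1 point per library and the mean ± SD of 5 libraries in black. For Trib3 and Ddit3 in iWAT 3 UCP1 KO points stand above the rest and 2 do not, and liver Asns spans 1.43 to 26.5 CPM within UCP1 KO.

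Against dKO, iWAT of UCP1 KO again had 0 of 45 genes called by edgeR (0.466% of all tested genes) and 1 by DESeq2 (3.08%). The unadjusted p was under 0.05 for 11 genes, 9 of them higher, against 14.2% of all tested genes and 9.8% higher. Trib3 was at 4.02, 7.72, 4.85, 7.62 and 5.45 CPM in dKO (log2 2.23 ± 0.55, adjusted p = 0.0425 by edgeR and 0.00134 by DESeq2), and Ddit3 at 17.3 to 25.4 CPM (log2 0.68 ± 0.29, adjusted p = 0.278). In iWAT, dKO against FGF21 KO, FGF21 KO against WT and the interaction also called 0 of 45 genes by both tools, with 0.0115%, 0.00575% and 0% of all tested genes called by edgeR and 0.0115%, 0.242% and 0.357% by DESeq2. At an unadjusted p under 0.05 there were 2, 6 and 6 of the 45, against 8.62%, 17.4% and 9.98% of all tested genes.

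Several of these genes moved with the lymph node markers in iWAT, whose part in the iWAT results was not tested. Slc7a11 was at 6.43 to 37.6 CPM in the 9 libraries scoring above 4 and at 0.139 to 1.45 CPM in the other 11. Mthfd1l ran from 11.2 to 21.9 and from 1.62 to 2.69 CPM, and Slc7a5 from 8.89 to 25.2 and from 3.93 to 11.4 CPM. In all, 4 of the 45 genes were higher without overlap in the 9 libraries (Slc7a11, Mthfd1l, Shmt2 and Aldh18a1), a smaller share than the 19.3% of all tested genes, and 10 were lower, Asns, Atf5 and Trib3 among them, against 9.81%. In the fit that took this score as a covariate 1 gene was called in UCP1 KO against WT, Mthfd2 (log2 1.52 ± 0.33, adjusted p = 0.00626), when 4.7% of all tested genes were. In the fit without the 9 libraries 1 gene was called, Cebpb (log2 1.5 ± 0.21, adjusted p = 0.00289), when 4.1% of all tested genes were.

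The effects of UCP1 loss in BAT and iWAT were compared directly, in 1 model over both tissues, with the libraries taken as independent because no label links those of a mouse. The difference was called for 20 of the 45 genes, when 6.3% of 17004 tested genes were called. It was positive, a larger effect in BAT, for 19 of them, against 2.31% of all tested genes, and negative for 1, Cebpb, against 3.99%. The median difference was 0.88, against 0.05 over all tested genes.

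By role, the 20 genes were 7 of 12 enzymes, 4 of 5 transporters, 6 of 10 synthetases and the regulators Atf4, Trib3 and Cebpb. The largest difference was in Slc7a5, at 4.87 ± 0.67 (adjusted p = 9.73e-06), whose iWAT libraries held 4.29, 3.93, 4.31, 8.89 and 16.2 CPM in WT and 4.67, 15.5, 4.73, 5.12 and 11.4 CPM in UCP1 KO. The iWAT groups overlapped, the highest values were in libraries with a high lymph node score, and the log2 difference there was 0.14 ± 0.51. Mthfd2 differed by 3.79 ± 0.58 (adjusted p = 3.71e-05), with 7.92, 5.83, 5.12, 14.0 and 25.0 CPM in WT iWAT and 8.79, 26.2, 20.1, 23.5 and 34.5 CPM in UCP1 KO iWAT.

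Aldh18a1 differed by 2.86 ± 0.41 (adjusted p = 1.43e-05) and was at 17.5 to 31.2 CPM in WT iWAT and 16.6 to 26.5 CPM in UCP1 KO iWAT. Slc6a9 differed by 2.72 ± 0.35 (adjusted p = 2.93e-06). It had 2.01, 1.30, 1.43, 2.18 and 1.94 CPM in WT BAT, 5.02, 10.8, 12.0, 8.91 and 15.1 CPM in UCP1 KO BAT, and 5.44 to 8.25 and 3.36 to 8.58 CPM in WT and UCP1 KO iWAT. For these 2 genes the BAT groups stood apart and the iWAT groups overlapped.

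Trib3 differed by 2.84 ± 0.65 (adjusted p = 0.00293). Cebpb went the other way, by -1.68 ± 0.41 (adjusted p = 0.0047), with a log2 difference of -0.40 in BAT and 1.31 in iWAT. Atf4 differed by 0.88 ± 0.15 (adjusted p = 0.000145). Slc7a11 was not called despite a difference of 5.41, with an SE of 1.94 (adjusted p = 0.0576), and neither was Ddit3 (1.58 ± 0.47, adjusted p = 0.0218). Without replicate 5 of UCP1 KO BAT 15 genes were called (4.33% of all tested genes), and Trib3, Cebpb, Aldh1l2, Sars and Yars were lost. The Cebpb call was lost without any 1 of 5 libraries (adjusted p of 0.0102 to 0.0134). Those of Cth and Sars were lost for more single libraries, with adjusted p up to 0.0198 and 0.0181. Sars was also lost with RLE factors (adjusted p = 0.0108) and without the filter (0.0117).

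**Figure D4:**
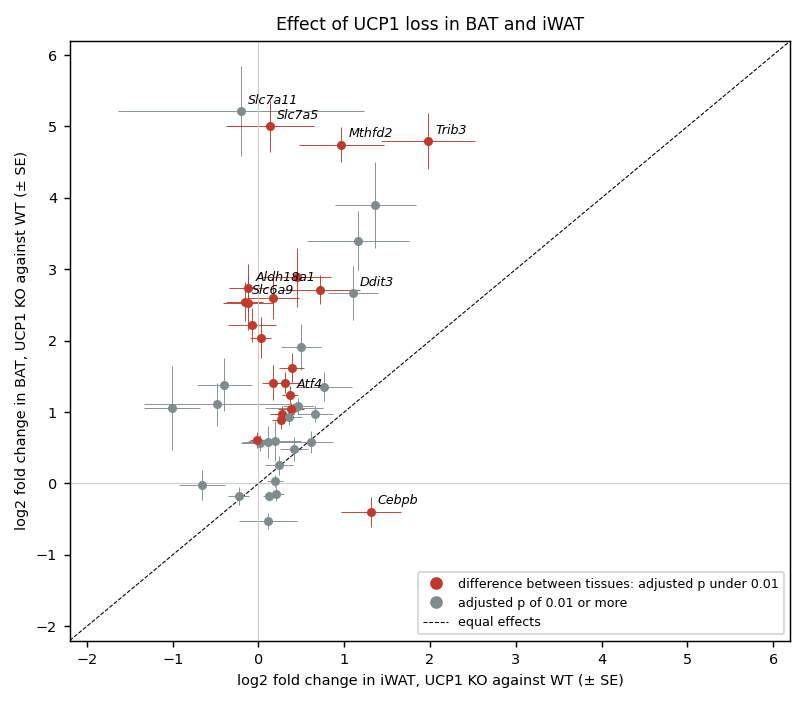
Log2 fold change (± SE) of UCP1 KO against WT in iWAT (horizontal axis) and BAT (vertical axis) for the 45 genes, with the dashed line at equal effects and red for an adjusted p under 0.01 of the difference. Most points lie above the line, Slc7a5 at 0.14 and 5.0, and the red point below it is Cebpb at 1.31 and -0.40.

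In liver, Stc2, Phgdh and Slc7a11 did not pass the filter, with at most 9, 14 and 5 counts, and 42 genes were tested. UCP1 KO against WT called 0 of them by edgeR (0.0694% of 14407 tested genes) and 2 by DESeq2 (0.777%). At an unadjusted p under 0.05 there were 11, all higher, against 10.2% of all tested genes and 5.8% higher. Mthfd2 was at 1.5, 1.82, 1.20, 1.55 and 1.45 CPM in WT and 2.61, 1.94, 2.66, 3.35 and 4.44 CPM in UCP1 KO (log2 1.00 ± 0.21, adjusted p = 0.0288 by edgeR and 0.00125 by DESeq2). Wars was at 15.8 to 19.4 and 20 to 26.8 CPM (log2 0.39 ± 0.09, adjusted p = 0.0467 and 0.00724). These groups did not overlap.

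Asns had the largest fold change in liver, with 0.885, 0.894, 1.39, 3.56 and 2.52 CPM in WT and 4.99, 13.0, 1.43, 26.5 and 11.9 CPM in UCP1 KO (log2 2.63 ± 0.77, adjusted p = 0.149), and dKO ranged as widely, from 1.39 to 30.3 CPM. Psat1 was at 0.707 to 0.966 CPM in WT and 0.966 to 3.24 CPM in UCP1 KO and was not called (log2 1.14 ± 0.30, adjusted p = 0.102). The 5 WT livers had a summed skeletal muscle level of 35.5 to 153 CPM against 22.2 to 39.1 CPM in UCP1 KO, and with the muscle score as a covariate 3 genes had an unadjusted p under 0.05, against 5.68% of all tested genes. Its part in the result was not tested. The other comparisons in liver called 0 of 42 genes by both tools: dKO against FGF21 KO (0.00694% of all tested genes by edgeR), UCP1 KO against dKO (0.00694%) and FGF21 KO against WT (0.229%), where DESeq2 called 0.0902%, 0.0416% and 0.382%. In these comparisons 4, 9 and 5 genes had an unadjusted p under 0.05, against 6.75%, 8.25% and 7.54% of all tested genes.

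In muscle, Slc7a11 did not pass the filter, with at most 8 counts, and 0 of the 44 tested genes were called by edgeR or DESeq2 in any comparison. The share of all tested genes called by edgeR was 0.0265% in UCP1 KO against WT, 0.0595% in dKO against FGF21 KO, 0% in UCP1 KO against dKO and 0.00662% in FGF21 KO against WT, and by DESeq2 0.172%, 0.112%, 0.132% and 1.27%. At an unadjusted p under 0.05 there were 2, 1, 9 and 8 of the 44 genes, against 9.81%, 7.96%, 11.7% and 12.9% of all tested genes. Atf4 was at 145, 159, 169, 182 and 182 CPM in WT and 171, 164, 156, 187 and 167 CPM in UCP1 KO, a log2 difference of 0.01 ± 0.06. The median difference of UCP1 KO against WT over the 44 genes was 0.01, and of dKO against FGF21 KO 0.00.

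**Figure D5:**
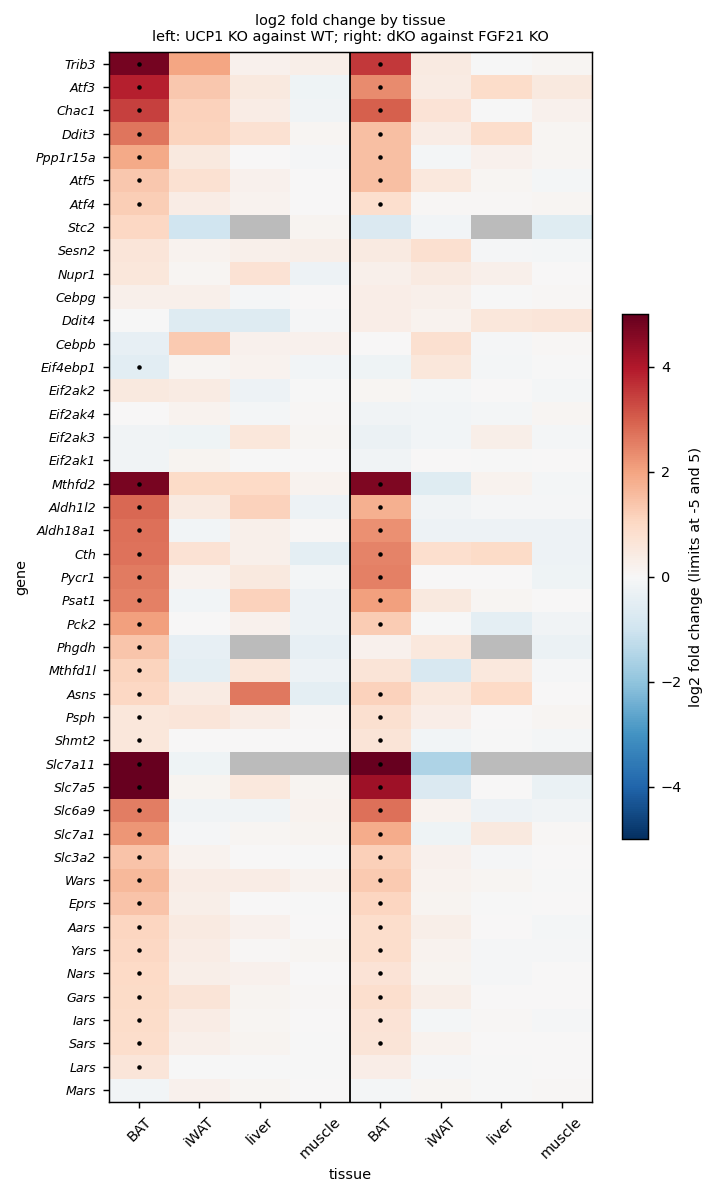
Log2 fold change of the 45 genes (rows, by role) in BAT, iWAT, liver and muscle, for UCP1 KO against WT (left 4 columns) and dKO against FGF21 KO (right 4 columns), with a dot for an adjusted p under 0.01 and grey for genes that did not pass the filter. The dots lie in the BAT columns, 34 on the left and 30 on the right, and Asns in liver at 2.63 is the strongest colour without a dot.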

How the data were processed

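The authors extracted total RNA, made poly(A)-selected strand-specific libraries, used STAR for alignment to the mouse build mm10 and HTSeq for counting per gene (both named in the submitters' processing notes), and the deposited files hold these raw counts, 28691377 to 50380696 per library. The strand option is not given in the sources used here. Reads on a row without a gene name (402 over all 80 libraries) were left out. The members and gene lists were chosen with earlier results of these data known.

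For each tissue, the study's filter was applied (over 15 counts in some library, over 75 in total, at most 10 libraries at 0), and the remaining genes were fitted with edgeR (4.0.16, R 4.3.3) with TMM factors and 1 mean per genotype over 20 libraries. P-values were adjusted by Benjamini-Hochberg over all genes tested in the tissue and called under 0.01. Alternatives were DESeq2 (1.42.0), RLE factors, no filter beyond 1 count, marker scores as covariates, 2 genotypes only and leaving out each library. The fits were tested on simulated counts. Every library value is given for the 10 members with the largest called changes in BAT and up to 5 per other comparison; other members were named by role, when not called, or within 10 Mb of Fgf21. Libraries of a genotype came from separate mice per the study's methods, and replicate numbers follow accession order. Positions are those of GENCODE vM21 and promoter sequences those of RefSeq. Intervals on reads cover counting error only. Some items are not reported here.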

Additional observations from a re-analysis of the deposited data

Results flagged for a closer look

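Of 72 groups of 5 libraries examined for a library far from the others, 4 held one, and chance gives about 1 in 20. Replicate 5 of UCP1 KO BAT stood apart for Atf3 (147 CPM) and Aldh18a1 (45 CPM), replicate 4 of dKO BAT for Aldh18a1 (8.34 CPM, the low side) and replicate 2 of FGF21 KO iWAT for Ddit3 (22.5 CPM). Replicate 4 of dKO BAT was also the lowest of its group for 20 of the 45 genes. The effect of UCP1 loss differed between BAT and iWAT by the test of the difference itself for 20 of the 45 genes. The 5 largest called differences were in Slc7a5 (4.87 on the log2 scale), Mthfd2 (3.79), Aldh18a1 (2.86), Trib3 (2.84) and Slc6a9 (2.72), all larger in BAT.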

How the results depend on the processing

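In BAT, UCP1 KO against WT called 34 genes and dKO against FGF21 KO 30, and leaving out single libraries gave 31 to 36 and 27 to 30. The same 34 and 30 genes were called with DESeq2, RLE factors, no filter and the muscle score as a covariate. Mthfd1l, Phgdh and Psph, with adjusted p of 0.00661, 0.00649 and 0.00561, were the calls lost when 1 of WT replicates 1, 2, 3 or 5 or UCP1 KO replicate 5 was left out, and 1 of them was lost without WT replicate 4 or UCP1 KO replicate 1 or 4. Without UCP1 KO replicate 1, Eif2ak1, Eif2ak2 and Nupr1 (0.73, adjusted p = 0.00862) were called as well, which gave the 36. The difference between BAT and iWAT called 15 to 24 genes without single libraries, 23 with DESeq2 and 27 with the lymph node score in the fit, against 20. Fits of only the 2 genotypes compared gave 31 and 31 in BAT, with Eif4ebp1, Mthfd1l and Phgdh lost in the first and Lars gained in the second, and libraries of low muscle score 35 (Sesn2 gained) and 26. In iWAT, UCP1 KO against WT, with 0 calls, gave 4 with DESeq2, 1 with the lymph node score and 1 without the 9 libraries of high score (chosen after seeing the data), and 0 to 1 without single libraries. UCP1 KO against dKO in iWAT gave 1 with DESeq2 and 0 to 1 without single libraries (Trib3, adjusted p = 0.00565, without UCP1 KO replicate 2). UCP1 KO against WT in liver gave 2 with DESeq2. Over all genes, DESeq2 called 597 against 106 in the first iWAT comparison and 535 against 81 in the second, and 2 genotypes only gave 1 and 0 there and 2614 against 3965 for UCP1 KO against WT in BAT. With the lymph node score in the fit the calls over all genes were 817 and 736 in these iWAT comparisons, without the 9 libraries 661 and 173, and 2185 against 1071 for the difference between tissues. With the muscle score dKO against FGF21 KO in BAT called 1275 against 2129. The cause was not tested. Trib3 in the difference between BAT and iWAT missed the threshold without UCP1 KO BAT replicate 5 (adjusted p = 0.0102), and the other 19 fold changes followed through all settings (10 for UCP1 KO against WT and 5 for dKO against FGF21 KO in BAT, 4 for the difference) kept direction and call. No paired analysis was possible because the labels carry no replicate numbers. Depth limits Slc7a11, with at most 4 counts in a WT BAT library.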
